A study of Mus musculus with 6 samples.

Results

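The genes described here are 10 that mark fat cells (adipocytes), followed across 6 mouse heart samples. They form a given list of adipocyte genes and were read from probe sets annotated to that one symbol. Of the 10, 9 had such a probe set, 1 each, among 19938 genes. No probe set was annotated to Cfd, the complement factor adipsin, so it was not analysed here. Each sample was 1 Affymetrix Mouse Gene 1.0 ST array of heart RNA from animals aged 6 months (postnatal day 180).

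The 6 arrays fell into 5 groups, and the number of animals behind a sample is not stated in the labels. WT was 1 array with no Id allele or transgene named. Id control was 2 arrays of unlike genotype: Id control 1 was Id1F/+Id3-/-, with no Cre named, and Id control 2 was Tie2Cre+Id1-/-Id3+/-. Id cKO was 1 array of Tie2Cre+Id1F/-Id3-/-. The last 2 arrays were Id cKO hearts, one treated with recombinant mouse IGFBP3 and one untreated, with no dose or duration stated in the labels. Both are called the incubated pair below. Tie2Cre is a Cre recombinase driven by a promoter active in endothelial and blood cells, so the floxed Id1 allele is removed there, while the alleles written as minus are absent from every cell. The products of Id1 and Id3 pair with E proteins, a class of transcription factors, and so keep them off DNA. The replicate numbers of the Id control arrays only name them.

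Adipocytes store triglyceride in lipid droplets, whose size and breakdown are governed by perilipins and CIDE proteins, and they secrete the hormones adiponectin, leptin and, in mice, resistin. The nuclear receptor PPARγ and C/EBP factors drive their gene programme. In the heart, fat cells lie on the outside, mostly along the groove between atria and ventricles and around the vessels, and lipid droplet genes are also active in the heart muscle itself. In a bulk sample, fewer cells of a type and less RNA per cell cannot be told apart.

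To show the DNA from which these transcripts start, the 250 bases upstream of the annotated start are printed for 3 genes that were at least 2-fold apart between the Id control arrays (Adipoq, Plin1 and Pck1) and for Lep, which was not. They come from RefSeq on GRCm38.p6, which held 9 such windows for 8 of the 10 genes and none for Fabp4 and Scd1. Capitals mark matches on either strand to any of 4 motifs: the E-box CANNTG, which E proteins bind, the nuclear receptor motif AGGTCA, the C/EBP palindrome TTGCGCAA, and the cyclic AMP response motif TGACGT. The windows, read 5′ to 3′, lie at chr16:23146286-23146535 (plus strand) for Adipoq, chr7:79732777-79733026 (minus strand) for Plin1, chr2:173152823-173153072 (plus strand) for Pck1 and chr6:29059971-29060220 (plus strand) for Lep.
Adipoq: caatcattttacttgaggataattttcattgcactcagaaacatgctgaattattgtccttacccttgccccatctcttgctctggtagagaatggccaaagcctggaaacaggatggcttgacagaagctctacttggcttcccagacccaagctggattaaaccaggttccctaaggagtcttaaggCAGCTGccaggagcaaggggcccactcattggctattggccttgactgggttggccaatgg
Plin1: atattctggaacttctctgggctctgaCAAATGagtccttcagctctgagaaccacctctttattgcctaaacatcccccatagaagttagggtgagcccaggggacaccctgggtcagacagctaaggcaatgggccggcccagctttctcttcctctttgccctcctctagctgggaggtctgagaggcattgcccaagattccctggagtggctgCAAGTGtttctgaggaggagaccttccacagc
Pck1: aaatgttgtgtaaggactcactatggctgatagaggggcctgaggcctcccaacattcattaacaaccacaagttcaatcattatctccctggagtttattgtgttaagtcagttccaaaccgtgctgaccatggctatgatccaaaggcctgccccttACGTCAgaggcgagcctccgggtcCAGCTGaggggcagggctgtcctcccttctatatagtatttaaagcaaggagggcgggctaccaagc
Lep: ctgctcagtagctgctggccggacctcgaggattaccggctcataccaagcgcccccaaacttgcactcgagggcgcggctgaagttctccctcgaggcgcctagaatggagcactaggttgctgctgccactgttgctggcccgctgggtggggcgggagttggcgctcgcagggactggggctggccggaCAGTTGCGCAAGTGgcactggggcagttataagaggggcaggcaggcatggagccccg
An E-box was present in 8 of the 9 windows, against 66.2% of 32851 windows of all genes. The C/EBP palindrome was found in the Lep window, where it overlaps 2 E-box matches, and in 0.164% of all windows. The cyclic AMP motif was found in the Pck1 window and in 6.47% of all windows, and the nuclear receptor motif in none of the 9, against 14% of all. A match is a description of the letters, not a bound site.

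The values are log2 levels as deposited by the authors. Array medians were 5.73 to 5.83 for WT, both Id control hearts and Id cKO, but 4.45 and 4.51 for the incubated pair, so these 2 sets of arrays were compared only after quantile normalization. Id1 was at 8.14 in WT, 8.10 in Id control 1, 6.41 in Id control 2 and 6.48 in Id cKO, and Id3 at 7.18, 5.02, 7.32 and 4.69. Id1 was thus lower in Id control 2 and Id cKO, and Id3 in the Id3-/- hearts, Id control 1 and Id cKO. Id3 was not lower in Id control 2, which is Id3+/-. After quantile normalization Id1 was at 6.50 in the treated, 6.51 in the untreated and 6.07 in the plain Id cKO heart, and Id3 at 5.03, 4.74 and 4.24. It is not stated whether these probe sets fall inside the deleted parts. Xist was at 4.03 in WT and between 8.15 and 8.62 in the Id control and Id cKO hearts, a male and a female pattern, and the incubated pair had the male one (2.998 and 3.077). The cardiomyocyte genes Myh6, Actc1 and Tnnt2 were between 13.53 and 14.14 in the 4 hearts that were not incubated. The labels carry 3 date codes, shared by WT, Id control 2 and Id cKO, by the incubated pair, and by Id control 1 alone. WT, Id cKO, treated and untreated each rest on 1 array and have no replicate check.

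Among the 4 hearts that were not incubated the adipocyte genes stood out in one heart, Id control 2, which is Id1-null and carries Tie2Cre. Of the 9 genes measured, 8 were highest there, Plin4 and Lep by less than the other arrays spanned. The share of all genes that were highest on that array was not computed, so this count has nothing to be set against. At least 2-fold above Id control 1 were 6 genes, namely Adipoq, Plin1, Cidec, Scd1, Retn and Pck1. Among all genes compared, 1.04% were at least 2-fold higher in Id control 2 than in Id control 1, 0.169% lower and 1.21% in either direction. Without the filter on low values the count of adipocyte genes was 6 again, against 0.647% of all genes (0.125% lower). The filter required the higher array of a comparison to reach a log2 level of 6, and 4 of the genes (Adipoq, Plin1, Retn and Cidec) reached it on Id control 2 alone. Lep reached it on none of the 4 arrays. No detection call was used, so whether these genes were above background on the lower arrays was not tested, and a difference from a level under 6 is one of measured values whose true size is uncertain.

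**Figure D1:**
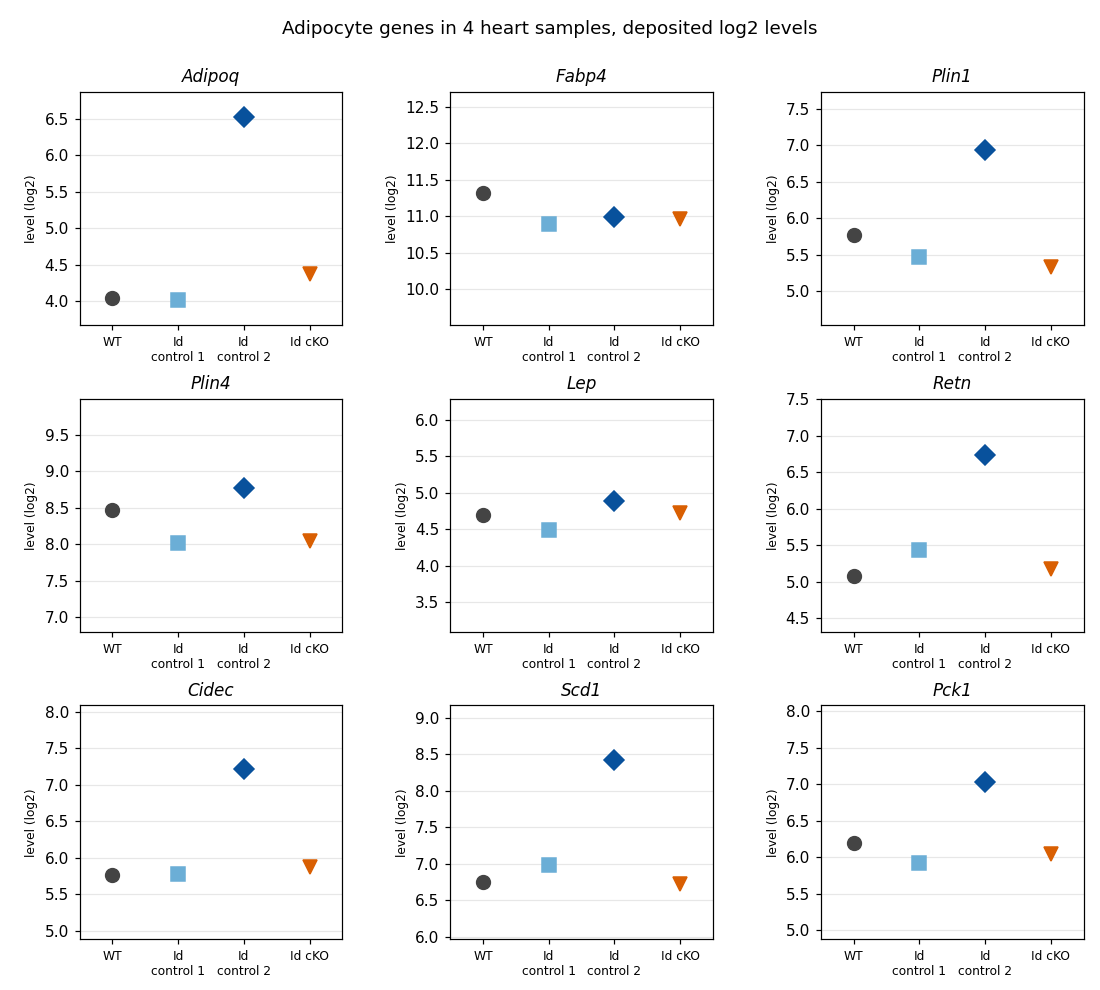
Deposited log2 level of each of the 9 measured adipocyte genes (1 panel each, all panels spanning the same number of log2 units) for WT, the pair of Id control hearts and Id cKO, 1 point per array. Id control 2 lies apart and above in 6 panels, is the highest by a small margin for Plin4 and Lep, and lies below WT for Fabp4.

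Among the secreted factors, Adipoq, which encodes the hormone adiponectin, was at 4.04 in WT, 4.02 in Id control 1, 6.53 in Id control 2 and 4.38 in Id cKO. Id control 2 was 2.50 above Id control 1 on the log2 scale and 2.15 above the next highest array, while the other 3 arrays lay within 0.35 of each other. Retn, which encodes resistin, was at 5.08 in WT, 5.44 in Id control 1, 6.74 in Id control 2 and 5.18 in Id cKO. The gap from Id control 2 to the nearest array was 1.30, and the other 3 spanned 0.36. Lep, which encodes leptin, the hormone that reports fat stores to the brain, was at 4.70, 4.49, 4.89 and 4.72 in the same order. Its highest array was Id control 2 too, but by 0.17, less than the 0.23 that the other 3 arrays spanned.

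The lipid droplet genes were split in the same way. Plin1, which encodes perilipin 1, the coat that shields the droplets of fat cells from lipases, was at 5.77 in WT, 5.47 in Id control 1, 6.94 in Id control 2 and 5.33 in Id cKO. Id control 2 was 1.17 above WT, the next highest, and 1.47 above Id control 1. Cidec, whose product fuses droplets into large ones, was at 5.76, 5.78, 7.21 and 5.87. The 3 lower arrays lay within 0.11 of each other and Id control 2 was 1.34 above them. Plin4, a perilipin also found on the droplets of muscle, was at 8.47, 8.02, 8.77 and 8.05. Id control 2 exceeded WT by 0.31, less than the range of 0.44 among the other arrays, so its place at the top did not stand clear of the rest.

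The enzymes and the fatty acid carrier differed among themselves. Scd1, the desaturase that makes monounsaturated fatty acids, was at 6.74 in WT, 6.98 in Id control 1, 8.42 in Id control 2 and 6.72 in Id cKO, so that Id control 2 lay 1.44 above the next array. Its relatives Scd2 and Scd4 are close in sequence, and whether probe sets of one register another was not tested. Pck1, phosphoenolpyruvate carboxykinase, which fat cells use to make glycerol for triglyceride and liver and kidney use to make glucose, was at 6.20, 5.93, 7.04 and 6.05. It was 1.11 higher in Id control 2 than in Id control 1, but only 0.84 above WT. Fabp4, a fatty acid carrier of fat cells that capillary endothelium and macrophages also express, was at 11.32 in WT, 10.89 in Id control 1, 10.98 in Id control 2 and 10.97 in Id cKO. It was the member that was not highest in Id control 2: WT was highest, by 0.34, and the other 3 arrays lay close together.

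Taking each of the 4 arrays in turn, 5 of the 9 genes (Adipoq, Plin1, Retn, Cidec and Scd1) were at least 2-fold above each other array in Id control 2, where 0.393% of all genes compared were (0.251% with no filter, and 0.0256% were lower). WT had 0 adipocyte genes 2-fold above or below all other arrays, against 0.0854% of all genes above and 0.0598% below. Id control 1 had 0, against 0.0256% and 0.00854%, and Id cKO had 0, against 0.641% and 0.307%. The mean level of the 9 genes was 7.50 in Id control 2 and between 6.34 and 6.45 on the other 3 arrays.

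**Figure D2:**
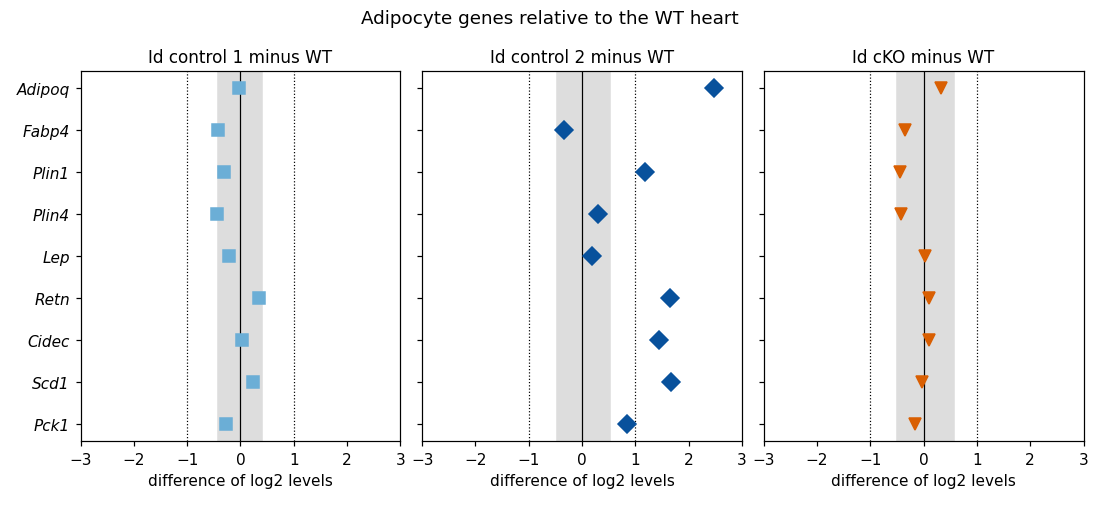
Difference of log2 level from WT for each of the 9 adipocyte genes in both Id control hearts and Id cKO (1 point per gene and array). The grey band runs from the 5th to the 95th percentile of all 19938 genes and dotted lines mark 2-fold. Id control 2 has 5 points beyond the upper dotted line, while in Id control 1 and Id cKO none passes either line.

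Between Id control and WT, a contrast named in the study's design, no adipocyte gene passed the test. None of the 9 genes was 2-fold from WT on both arrays, where 0.202% of all genes compared were (0.105% higher and 0.0964% lower). In limma with Benjamini-Hochberg adjustment over 11407 genes, 0 of the 7 adipocyte genes that passed the filter reached an adjusted p of 0.05, 0 of the 7 had an unadjusted p under 0.05, and 0% of all genes passed (828 genes at an unadjusted p under 0.05). The test takes its spread from the gap between the Id control arrays, which was at least 2-fold for Retn, Scd1, Plin1, Cidec and Pck1. A failure to pass is therefore no sign that these genes were alike. Plin1, Retn and Cidec passed the filter only through Id control 2. The smallest adjusted p among the 7 was 0.629, for Fabp4 (a log2 difference of -0.38 ± 0.14, limma SE), which was lower on both Id control arrays, at -0.43 and -0.34. Retn was 1.01 ± 0.56 higher (adjusted p = 0.652), with 0.36 on Id control 1 and 1.65 on Id control 2. Scd1 was 0.95 ± 0.62 higher (adjusted p = 0.674), with 0.23 and 1.67. For Retn and Scd1 the 2 arrays ran in the same direction but differed widely in size, while for Fabp4 they lay close together. Adipoq, which did not pass the filter on group means, was -0.023 from WT on Id control 1 and 2.48 on Id control 2, and Plin1 was -0.30 and 1.17, so their arrays had opposite signs.

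The median difference of the 9 genes from WT was 0.44 over the 2 Id control arrays, where that of all measured genes was -0.0098. It was 1.17 without Id control replicate 1, with 5 genes at least 2-fold higher where 1.55% of all genes were (0.227% lower), and -0.21 without replicate 2, with 0 genes where 0.211% were higher and 0.29% lower. The value without replicate 1 is also the comparison within the shared date code, though the sex patterns differ.

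Id cKO set against Id control, hearts of like sex pattern, again gave no adipocyte gene that passed. None was 2-fold from both arrays, where 1.12% of all genes compared were (0.698% higher and 0.424% lower), and 0 of 7 passed an adjusted p of 0.05 in limma, where 0.0177% of all genes did. At an unadjusted p under 0.05 the counts were 0 of 7 adipocyte genes and 1523 of all genes. The limits of spread and filter given for Id control against WT hold here for the same genes. Retn had the smallest adjusted p, at -0.91 ± 0.56 (limma SE, adjusted p = 0.546), followed by Scd1 at -0.98 ± 0.62 (0.559) and Plin1 at -0.87 ± 0.63 (0.609). Fabp4 differed by 0.029 ± 0.14 (adjusted p = 0.951). The median of the 9 genes was -0.63, that of all measured genes -0.00041. It was -1.34 without Id control replicate 1, with 5 genes at least 2-fold lower where 1.52% of all genes were (1.13% higher), and 0.074 without replicate 2, with 0 genes where 1% were lower and 1.53% higher. So the count of 2-fold genes in either comparison rested on which Id control array was used.

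Between Id cKO and WT, lone arrays that share a date code but differ in sex pattern, no adipocyte gene was 2-fold apart. Of all genes compared, 3.17% were (2.2% higher and 0.967% lower). Genotype and sex pattern cannot be told apart in this comparison. The differences ran from -0.44 for Plin1 to 0.33 for Adipoq, with a median of -0.030 (all measured genes, -0.029). Plin4 was at -0.42 and Fabp4 at -0.35. Scd1 was at -0.030, Lep at 0.020 and Retn at 0.094. In limma over the 6 arrays, which lends the lone arrays the spread of the Id control pair, the smallest adjusted p among the 4 genes that passed the filter was 0.464, for Fabp4. Thus 0 of 4 passed and 0 had an unadjusted p under 0.05, where 0.0348% of all genes passed (0.0174% higher and 0.0174% lower). These comparisons share arrays: Id cKO, WT and Id control each enter more than one of them.

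Other genes of fat cells were read from 9 lists. These were chosen with earlier results of these data known, so they are not an independent check. In the list of other adipocyte-enriched genes 19 of 20 were measured, and 16 were higher in Id control 2 than in Id control 1 by any amount and 3 lower. Of all 19938 genes measured, 9475 were higher by any amount and 10458 lower. Without the filter 3 were at least 2-fold higher and 0 lower, where 0.647% of all genes were higher. Among those that reached a level of 6 the count was 2, where 1.04% were, since Arxes2 did not reach it. Car3, a carbonic anhydrase abundant in fat, was at 4.86 in WT, 5.85 in Id control 1, 9.95 in Id control 2 and 4.99 in Id cKO. Cyp2e1, a cytochrome P450 of liver and fat, was at 4.61, 5.05, 8.34 and 4.65. Arxes2, an X-linked gene active in fat cells, was at 3.87, 3.71, 5.74 and 3.71. In all 3, Id control 2 stood alone above the other arrays, and the list median was 0.22. The next largest difference in that list was 0.51, for the amine oxidase gene Aoc3.

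Of 10 measured genes for other factors that fat secretes, 2 were 2-fold higher in Id control 2 than in Id control 1 and 0 lower (median 0.35). Agt, which encodes angiotensinogen, was at 7.67 in WT, 6.74 in Id control 1, 9.22 in Id control 2 and 5.95 in Id cKO, so that all 4 arrays were apart. Ccdc80 was at 9.21, 9.39, 10.59 and 9.41. Of 18 genes of fatty acid and triglyceride synthesis 1 was 2-fold higher, Scd4, at 5.99, 6.28, 7.39 and 5.48 (list median 0.12). Fasn, the fatty acid synthase, was at 6.98, 7.40, 8.34 and 6.79, 0.94 higher in Id control 2 than in Id control 1.

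Of 10 regulators of fat cell formation 0 were 2-fold apart between the Id control arrays (median 0.16). Pparg was at 8.44 in WT, 8.01 in Id control 1, 8.04 in Id control 2 and 8.24 in Id cKO, and Cebpa at 6.53, 6.41, 6.91 and 6.37. The counts were 0 of 16 for lipid droplet and lipolysis genes other than Plin1, Plin4 and Cidec (median 0.059), 0 of 9 for fatty acid and glucose uptake (-0.079), 0 of 6 for progenitors of fat cells (0.26) and 0 of 6 for the receptors of adiponectin and leptin, their partners and the insulin receptor (0.11). Of 9 brown and beige fat genes 1 was 2-fold higher, the coactivator gene Ppargc1a, at 10.49, 9.20, 11.31 and 9.22, which heart muscle also expresses. Ucp1, the uncoupling protein that defines brown fat, was at 4.81, 4.67, 5.05 and 4.67 (list median -0.042). The median difference of all measured genes was -0.012.

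Between Id cKO and WT, hearts that differ in sex pattern, 2.2% of all genes compared were 2-fold higher and 0.967% lower. In these lists Dio2, Cd34 and Scd2 were 2-fold higher, and Slc36a2, Aqp7, Fitm1, Klf15, Agt and Ppargc1a were 2-fold lower. Of genes past the filter, 1 of 6 brown and beige fat, 1 of 6 progenitor and 1 of 16 synthesis genes were higher. Lower were 2 of 6 other adipocyte-enriched genes, 1 of 15 droplet genes and 1 of 10 regulators. So were 1 of 7 secreted factors and 1 of 6 brown and beige fat genes. In the uptake and receptor lists 0 of 9 and 0 of 5 were 2-fold apart. Dio2, the deiodinase that activates thyroid hormone, was at 7.75 in Id cKO against 5.49 in WT, 5.60 in Id control 1 and 5.99 in Id control 2. The progenitor marker gene Cd34 was at 10.76 against 9.46, 10.08 and 10.39, and Scd2 at 8.10 against 6.88, 7.34 and 8.03. Slc36a2, an amino acid transporter gene, was at 6.21 against 7.61, 7.71 and 7.77, and the glycerol channel gene Aqp7 at 8.10 against 9.11, 8.98 and 9.16. Fitm1, which acts in droplet formation in muscle, was at 9.27 against 10.39, 10.70 and 10.44, and Klf15 at 7.95 against 9.35, 8.72 and 8.67. In limma over the 6 arrays none of these passed (adjusted p against WT from 0.121 to 0.661).

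Some markers of other tissues were high together with the adipocyte genes in Id control 2. The atrial genes Myl7 and Myl4 were at 12.27 and 12.97 there, and between 5.28 and 5.38 and between 6.69 and 6.83 on the other 3 arrays of the set. Sln, the atrial regulator of the calcium pump, was at 7.13 against 5.18 in WT, 4.74 in Id control 1 and 4.70 in Id cKO. Of the 5 atrial genes 4 were at least 2-fold higher in Id control 2 than in Id control 1, Myl7, Myl4, Sln and Nppa, and the mean of the list was 11.07 there and between 7.20 and 7.59 on the other 3 arrays. Nppa, a natriuretic peptide gene that is also on the cardiomyocyte list, did not share the pattern, since it was at 10.29 in WT, 11.30 in Id control 1, 13.71 in Id control 2 and 14.03 in Id cKO. The list of 6 mesothelial markers, cells that cover the heart, had a mean of 6.83 in Id control 2 and between 6.17 and 6.46 on the others, with 0 genes 2-fold apart. Of these markers, Msln was highest in WT (6.67), Wt1 in Id cKO (7.76) and the rest in Id control 2. The 4 fibroblast markers had a mean of 10.35 against 9.08 to 9.74, with 1 gene 2-fold higher, Col1a1. The 4 smooth muscle markers had a mean of 8.90 against 7.61 to 8.28, with 0 genes. The part of these tissues in the levels of the adipocyte genes was not tested.

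**Figure D3:**
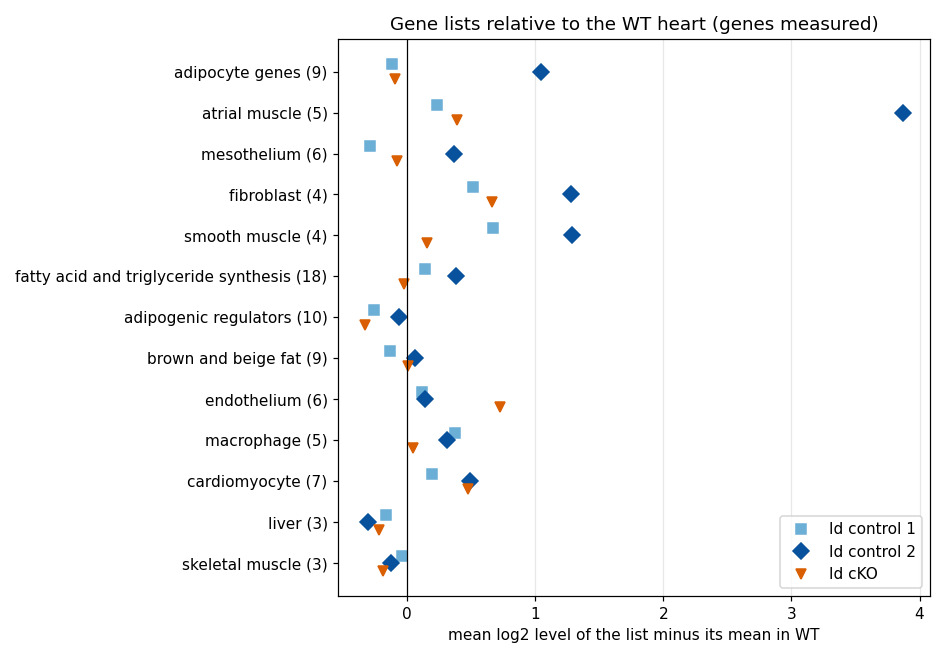
Mean log2 level of each gene list minus its mean in WT, for both Id control hearts and Id cKO (1 point per list and array, number of genes measured in brackets). Id control 2 lies apart from the other arrays for the adipocyte and, by more, the atrial genes, and the lists of endothelium, macrophages, liver and skeletal muscle do not show this. Id control 2 is also the highest for the fibroblast and smooth muscle lists, further above WT than for the adipocyte genes.

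Other marker lists had means in Id control 2 near or within the range of the other arrays. The 3 liver genes, a tissue that expresses Cyp2e1, Agt and Pck1, had a mean of 5.01 there and 5.09 to 5.31 on the other 3 arrays. The 6 endothelial genes had a mean of 9.28 against 9.14 to 9.87, the 5 macrophage genes 7.62 against 7.31 to 7.68, and the 3 skeletal muscle genes 5.03 against 4.97 to 5.16. Thymus and T cell genes were at 5.14 against 5.21 to 5.29, B cell genes at 3.83 against 3.84 to 4.23, and lung epithelium genes at 4.22 against 4.21 to 4.45. The 2 measured red cell genes had a mean of 6.86 against 6.74 to 8.04, and S100b, the measured Schwann cell marker, was at 5.36 against 5.27 to 5.50.

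The genes whose pattern over the 6 quantile-normalized arrays was most like the mean of the 9 adipocyte genes were sought among 2650 genes with a range of at least 1. Those with the highest Pearson r were Rxfp1 (0.99), a relaxin receptor gene, Hp (0.99), the plasma protein haptoglobin, Fgf12 (0.98), Tmem100 (0.98), Mybphl (0.98), Myl7 (0.97), Myl4 (0.96), Adcy1 (0.96), Adamts15 (0.95) and Nr4a3 (0.94). Each of the 10 was highest in Id control 2. All points share that array, and without it r over the other 5 arrays was 0.90 for Hp, 0.80 for Rxfp1, 0.17 for Myl7 and -0.52 for Myl4. The 9 adipocyte genes did not vary together on those 5 arrays. There, r of each with the mean of the others ran from -0.94 (Cidec) to 0.75 (Plin4). Over all 6 arrays r ran from -0.35 (Fabp4) to 0.98 (Plin1). As deposited, Hp was at 5.57 in WT, 5.49 in Id control 1, 6.86 in Id control 2 and 5.28 in Id cKO, and Rxfp1 at 3.85, 3.75, 6.50 and 3.57. The 6 arrays are too few for these correlations to be more than a description.

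The pair of incubated hearts compared Id cKO tissue with and without IGFBP3, which binds insulin-like growth factors outside cells. No adipocyte gene was 2-fold apart between treated and untreated, where 1.3% of all genes compared were (0.495% higher and 0.803% lower). Fabp4 was at 10.69 with IGFBP3 and 9.82 without, 0.87 higher, beyond the 95th percentile of all genes (0.576). Its unadjusted p in limma over the 6 arrays was 0.00479 and its adjusted p 0.184, so it did not pass (0 of 7474 genes did, against 1716 at an unadjusted p under 0.05). The smallest adjusted p of any gene was also 0.184. Adipoq was at 2.25 with and 2.995 without IGFBP3, a difference of -0.75. After quantile normalization the treated heart (2.82) lay below all other arrays. The untreated one (3.83) was then above WT (3.60) and Id control 1 (3.63). Scd1 was at 7.22 and 7.44, Plin4 at 7.39 and 7.40, and the remaining 5 genes differed by between -0.33 and 0.31. The median over the 9 genes was -0.23, that of all measured genes -0.035. Only Fabp4, Plin4 and Scd1 reached the filter in this pair.

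**Figure D4:**
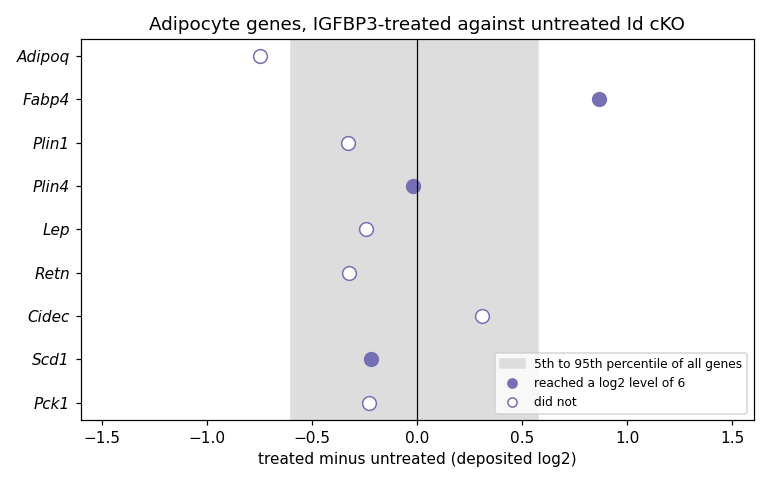
Treated minus untreated Id cKO, in deposited log2 units, for the 9 adipocyte genes (1 array per condition). The grey band runs from the 5th to the 95th percentile of all genes (-0.599 to 0.576), filled points mark the 3 genes that reached a log2 level of 6, and Fabp4 (0.87) and Adipoq (-0.75) lie outside the band on opposite sides.

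Endothelial genes were set beside Fabp4, since capillaries express it. Of the 6 endothelial markers 5 were higher with IGFBP3 and 0 by 2-fold, with a median difference of 0.23. Of all 19938 genes measured, 8633 were higher by any amount and 10429 lower. Among the 7474 that passed the filter the counts were 4058 and 3368. Cldn5 was at 7.72 with and 7.10 without IGFBP3, Kdr at 9.16 and 8.59, and Tie1, the exception, at 8.81 and 9.43. Of the 9 genes of fatty acid and glucose uptake 5 were higher with IGFBP3 and 4 lower, 0 of them by 2-fold (median 0.25). The largest differences were those of the fatty acid translocase gene Cd36 (0.62), the glucose transporter gene Slc2a4 (-0.49), Gpihbp1, which anchors lipoprotein lipase to capillaries (0.48), and the lipoprotein receptor gene Vldlr (0.47). Of the 5 macrophage markers 1 was higher with IGFBP3 (median -0.35). Their part in the difference of Fabp4 was not tested.

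After quantile normalization the incubated hearts could be set beside the others, and 7 of the 9 genes were highest in Id control 2 among all 6 arrays. The share of all genes that were highest there was not computed, so this count too has nothing to be set against. Adipoq was then at 6.13 in Id control 2 and between 2.82 and 3.93 elsewhere, Plin1 at 6.53 against 4.88 to 5.40, and Cidec at 6.79 against 4.98 to 5.44. Retn was at 6.33 against 4.33 to 5.02, and Pck1 at 6.63 against 5.27 to 5.75. Plin4 (8.32 against at most 8.24) and Lep (4.50 against at most 4.38) were barely above the next array.

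Scd1 and Fabp4 were the exceptions. Scd1 was at 6.35 in WT, 6.57 in Id control 1, 7.98 in Id control 2, 6.30 in Id cKO, 7.99 in the treated and 8.27 in the untreated heart. It was thus as high in the incubated hearts as in Id control 2, and 1.97 higher in the untreated than in the plain Id cKO heart, a 3.92-fold difference. It was the member that was 2-fold apart in that comparison, where 8.41% of all genes compared were (4.97% higher and 3.44% lower). With the treated heart in place of the untreated one the difference was 1.69, and 5.65% of all genes were 2-fold apart (4.13% higher and 1.52% lower). Adipoq then differed by -1.11, at levels under the filter. Fabp4 was highest in the treated heart (11.39) and between 10.48 and 10.95 on the other 5 arrays. The other 7 genes differed between the untreated and the plain Id cKO heart by -0.46 (Cidec) to 0.57 (Plin4), and the median of all 9 was 0.061 (all measured genes, -0.0079). All 7 cardiomyocyte markers were lower in the untreated than in the plain Id cKO heart (median -0.46) and all 5 macrophage markers higher (median 0.89). Of all 19938 genes measured, 9845 were higher by any amount and 10090 lower. The part of either list in the difference of Scd1 was not tested. Date code, sex pattern and incubation cannot be told apart in this comparison.

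**Figure D5:**
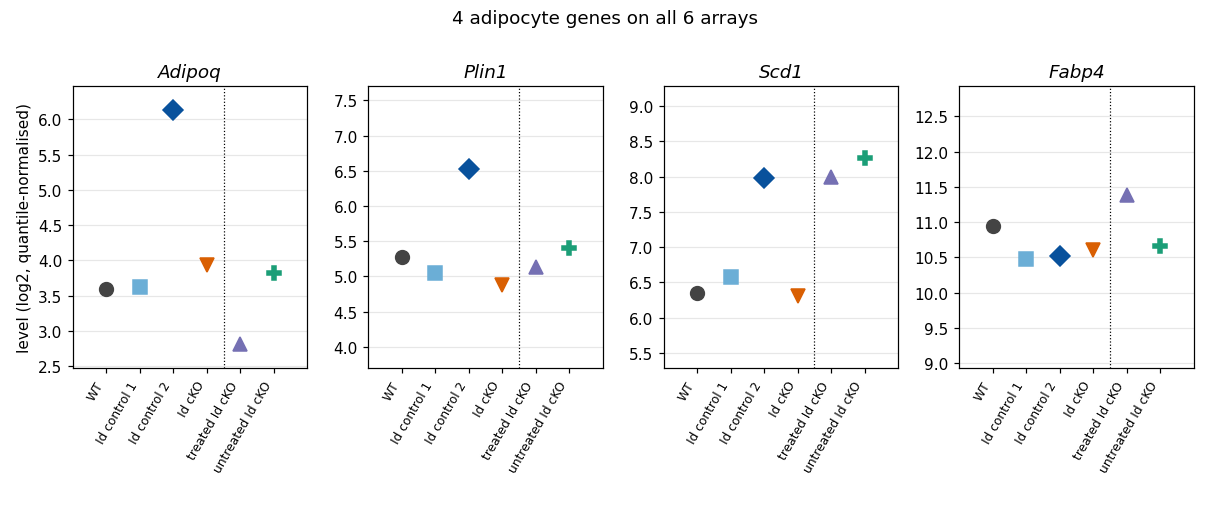
Quantile-normalized log2 level of Adipoq, Plin1, Scd1 and Fabp4 on all 6 arrays (1 point per array, panels spanning the same number of log2 units, dotted line between the 2 sets of arrays). Adipoq and Plin1 are high in Id control 2 alone, Scd1 is high in Id control 2 and both incubated hearts, and Fabp4 is highest in the treated heart.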

How the data were processed

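Levels of RNA were measured on 6 arrays. The authors deposited log2 values for 35557 probe sets on every array. RMA in Expression Console made them, per the submitters' processing notes, a method that normalizes arrays and summarises probes. No version is stated there, nor which arrays were normalized together. Of the probe sets, 21789 carried 1 symbol, 1621 several and 12147 none, by the platform annotation. Where a gene had several, the probe set with the highest mean stood for it.

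Differences are of deposited log2 values, or of quantile-normalized ones across the 2 sets of arrays. A gene entered a comparison if its higher group mean was at least 6, and genes were counted at 2-fold, in comparisons with Id control from both of its arrays. A limma model (version 3.58.1, R 4.3.3) of all 6 arrays and their 5 groups gave p-values, adjusted by Benjamini-Hochberg, and the script was tested on simulated data. Its 1 residual degree of freedom comes from the Id control pair, whose spread the lone arrays are assumed to share and which includes genotype and date code. The p-values therefore reflect the spread of these samples alone, and that may be technical.

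The adipocyte genes and other lists were chosen with earlier results of these data known. Named genes are the adipocyte genes, up to 4 list genes with the largest differences or any 2-fold apart, defining markers, and the 10 genes most like the adipocyte genes. Pparg, Cebpa, Fasn and Ucp1 were named after their values were seen where they fell outside this. Alternatives were other scalings, other filters, the mean of a gene's probe sets, and leaving out each Id control array. The number of arrays limits the precision.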

Additional observations from a re-analysis of the deposited data

How the results depend on the processing

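The counts and medians of the adipocyte genes were recomputed under quantile normalization, median centring, no filter, a filter at a log2 level of 8, and the mean of all probe sets of a gene, with cyclic loess for the comparison across the 2 sets of arrays. The median difference was smaller than the spread between the Id control arrays (SD 0.887) in each comparison but Id control 2 against 1, so its stability was not judged there. Its sign turned for Id control against WT from 0.44 to -0.21 without replicate 2 (1.17 without replicate 1), for Id cKO against Id control from -0.63 to 0.074 without replicate 2 (-1.34 without replicate 1), for Id cKO against WT from -0.030 to 0.032 with median centring, and for untreated against plain Id cKO from 0.061 to -0.098 with the treated heart instead. The count of genes at least 2-fold apart between the Id control arrays was 6 and became 1 with the filter at 8, by its construction, since Scd1 alone reaches that level among them. The count of 2-fold genes was 0 for Id control against WT and ranged from 0 to 5 when 1 Id control array was left out. It was 0 for Id cKO against Id control and ranged from 0 to 5 likewise. Without an Id control array no residual degree of freedom remains, so those values have no test. The smallest adjusted p of an adipocyte gene in limma ranged from 0.435 to 0.674 for Id control against WT and from 0.502 to 0.638 for Id cKO against Id control. Over all genes, limma called 0 for Id control against WT, 1 with median centring and 1 with no filter. For Id cKO against Id control it called 2 genes, and 2 under each of these alternatives. Counts of 2-fold genes over all genes moved by more than 1.5 times with the filter at 8, for Id control against WT from 12 higher and 11 lower to 7 and 5, for Id cKO against Id control from 79 and 48 to 46 and 27, for treated against untreated from 37 and 60 to 6 and 33, for Id control 2 against 1 from 117 and 19 to 68 and 8, and for Id cKO against WT from 253 and 111 to 161 and 62. For treated against untreated they were 87 and 91 with no filter, and 81 were higher with median centring. With median centring 7 were lower for Id control against WT. For untreated against plain Id cKO 352 were lower, 565 with no filter and 154 with the treated heart instead. Of 306 single-gene values under alternatives, 286 kept the sign of the main value. Fabp4 was 0.72 higher in the treated heart after quantile normalization. No paired analysis was possible because the labels give the arrays no shared replicate numbers. A date block could not be fitted beside the groups, since Id control 1 alone has its date code.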
